A study of Mus musculus with 12 samples.

Results

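Tumours of mice given doxorubicin bound to a polypeptide carrier (CP-Dox) were compared with tumours of mice given the same drug in free form (Dox). The comparison comprises the 4 arrays titled for CP-Dox and the 4 titled for Dox, of 12 arrays in all, and every one of the 12393 genes with a probe set of its own was tested. All mice were Balb/c, labelled as 6 weeks old, and carried a subcutaneous tumour on the flank grown from injected C26 cells, a mouse colon carcinoma line. Treatment was given on day 8 after inoculation, when tumours measured about 50 mm3, and the tumours were taken 48 h later. The remaining 4 arrays came from tumours of mice given phosphate-buffered saline (PBS), and these arrays add to the estimate of the spread between mice. Titles number the mice 1 to 4 in each group, 1 array per tumour. No group of the series received the carrier alone, so that the drug's attachment to it and the carrier itself cannot be told apart, and the sources used here do not give the dose of either form. Whole tumours hold C26 cells and host cells, and fewer cells of a type and less RNA per cell cannot be told apart in such samples.

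Doxorubicin slides between the bases of DNA and traps topoisomerase II on it, which leaves DNA breaks. Cells answer with checkpoint kinases and the transcription factor p53, whose targets stop the cell cycle, repair DNA or start cell death. The drug also disturbs transcription of ribosomal DNA in the nucleolus. Carriers of the chimeric polypeptide kind were designed to keep the drug longer in the blood and to bring more of it into tumours, where it is released from the carrier in acidic compartments of the cell.

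Signals are log2 values from RMA, the usual summary of such arrays, in which a step of 1 doubles the signal. Differences are CP-Dox minus Dox and carry (after ±) the standard error from limma, with n = 4 tumours on each side, and rose, fell and changed are used only for a limma adjusted p under 0.05. The number of arrays limits the precision, and the median standard error was 0.13. The labelled origin of the cells was compared with colon epithelial markers. The keratin gene Krt8 was at 9.17 to 12.05 over the 12 arrays and Krt18 at 5.74 to 10.33. The intestinal transcription factor gene Cdx2 stayed at 5.06 to 5.44 and the brush border gene Vil1 at 4.24 to 4.62, mean levels that 17.6% and 4.6% of the 12393 genes were below.

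The tumours of a group were not alike. CP-Dox replicate 2 correlated with the other CP-Dox arrays at a mean of 0.948, and with the Dox arrays at 0.973, while the other 3 CP-Dox arrays correlated with their own group at 0.971 to 0.977 and the Dox arrays with theirs at 0.983 to 0.990. Markers of keratinocytes were high in CP-Dox replicates 1 and 3, where the mean of 20 markers exceeded the Dox mean by 2.63 and 3.70, and lay between -0.21 and 0.036 in the other arrays of both drug groups. Skeletal muscle markers were high in Dox replicate 2 (2.65 above the Dox mean) and in the CP-Dox tumours (0.63, 1.66, 2.60 and 2.73 in replicates 1 to 4), and low in the other Dox tumours (-0.90 to -0.87). In PBS replicates 1 to 4 their mean was at -0.89, -0.99, 4.37 and 2.64, so that high muscle markers were not confined to treated tumours. Results are therefore given with and without these CP-Dox arrays where they rest on them. The lists, that of muscle among them, are not given without Dox replicate 2.

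Few genes separated the drug forms at this threshold. CP-Dox differed from Dox in 28 of 12393 genes, 7 higher and 21 lower in CP-Dox, which is 0.226% of the genes tested (0.0565% higher and 0.169% lower). The genes lower after CP-Dox include ones for enzymes of serine, one-carbon and polyamine synthesis, nucleolar and splicing proteins, chaperones of histones and proteins of DNA repair, beside others such as Cbr2, Mtm1 and Timm8a1. Those higher include Pmaip1, the gene of Noxa, a protein that promotes apoptosis. Of the 28 genes, 8 differed at least 2-fold, 4 in each direction, and the 4 CP-Dox and 4 Dox values of all 28 did not overlap. Over all genes, 9.63% were without overlap, 3.29% higher and 6.34% lower in CP-Dox. After median centring of the arrays 37 genes were called, 4 higher and 33 lower. Adjusted p-values ran from 0.00433 to 0.0499, and 13 of the 28 genes shared the value of 0.0499.

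The number of called genes moved strongly with single tumours and with the model. Without CP-Dox replicate 2 it was 1150 (9.28% of genes), with 591 higher (4.77%) and 559 lower (4.51%), and all 28 genes were among them. Leaving out an array that lies apart lowers the spread and favours calls, so that this larger number is not separate support. Without any other single array it was 1 to 18: 1, 2 and 8 without CP-Dox replicates 1, 3 and 4, and 1, 6, 1 and 18 without Dox replicates 1 to 4. A fit of the CP-Dox and Dox arrays alone called 0 genes, with 1927 at an unadjusted p under 0.05, compared with 1991 (16.1% of genes) when the PBS arrays shared in the estimate of the spread.

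**Figure D1:**
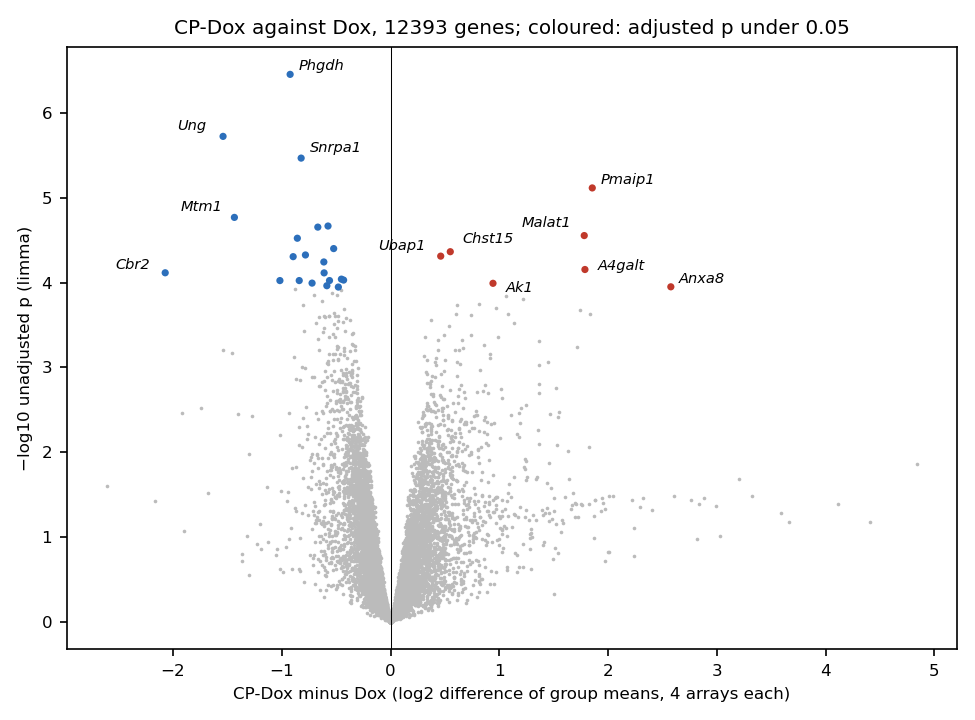
Each point is 1 of 12393 genes, with the log2 difference between the CP-Dox and Dox group means on the horizontal axis and the negative log10 of the unadjusted limma p on the vertical axis. The 21 genes lower in CP-Dox (blue) and the 7 higher (red) passed an adjusted p under 0.05, and grey genes with larger differences on the right did not pass.

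Genes of 3 enzymes of serine, one-carbon and polyamine synthesis fell. Phgdh, which encodes the first enzyme of serine synthesis, had the lowest p of all genes. Its signal was 10.03, 10.22, 9.92 and 10.27 in CP-Dox replicates 1 to 4 and 11.10, 10.95, 11.02 and 11.06 in Dox replicates 1 to 4, so that every CP-Dox tumour was lower by more than the range within either group. It fell by 0.92 ± 0.089 (1.9-fold lower, limma adjusted p = 0.00433), and 18 of 21 alternative settings kept the call. The other 27 called genes kept it in 5 to 14 settings, and 24 of the 28 in under 50% of the settings tried. Shmt2, which encodes the mitochondrial enzyme that splits serine and passes on its one-carbon unit, was at 9.88, 10.37, 9.69 and 10.10 in the CP-Dox tumours and at 10.99, 11.26, 10.91 and 10.94 in the Dox tumours. CP-Dox replicate 2 had the highest of the CP-Dox values, still below the lowest Dox value, and Shmt2 fell by 1.02 ± 0.17 (limma adjusted p = 0.0499). Srm, which encodes spermidine synthase, an enzyme of polyamine synthesis, was at 10.24, 10.41, 10.19 and 9.98 compared with 10.90, 10.91, 10.93 and 10.75 and fell by 0.67 ± 0.098 (limma adjusted p = 0.0392).

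Promoters of 4 of the lower genes are shown, that of Phgdh for its p and those of Set, Anp32b and Mtm1 because, among the called genes, their windows alone held both motifs that were searched. The windows run from 250 bases before to 50 bases after the RefSeq start (build GRCm38.p6). Capitals mark the E-box CACGTG, bound by proteins of the Myc family and others, and the CCAAT box, which reads ATTGG where it lies on the other strand, each searched on both strands. The Phgdh window is chr3:98339920-98340219, minus strand, and the Set window, 1 of 2 for this gene, is chr2:30061746-30062045, plus strand. The Anp32b window is chr4:46450676-46450975, plus strand, and the Mtm1 window, 1 of 3 for this gene, is chrX:71214756-71215055, plus strand.
Phgdh: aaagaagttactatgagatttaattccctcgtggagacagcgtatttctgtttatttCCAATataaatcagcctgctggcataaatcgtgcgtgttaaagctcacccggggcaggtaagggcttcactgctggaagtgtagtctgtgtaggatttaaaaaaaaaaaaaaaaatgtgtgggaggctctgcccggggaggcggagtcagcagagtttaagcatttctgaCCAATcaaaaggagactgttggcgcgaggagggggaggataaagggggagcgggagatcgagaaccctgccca
Set: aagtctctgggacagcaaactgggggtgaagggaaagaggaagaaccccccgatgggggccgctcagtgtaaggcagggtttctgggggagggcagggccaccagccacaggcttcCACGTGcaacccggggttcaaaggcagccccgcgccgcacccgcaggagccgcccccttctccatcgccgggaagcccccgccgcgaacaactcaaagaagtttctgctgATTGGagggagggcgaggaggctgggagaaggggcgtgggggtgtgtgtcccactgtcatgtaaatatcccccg
Anp32b: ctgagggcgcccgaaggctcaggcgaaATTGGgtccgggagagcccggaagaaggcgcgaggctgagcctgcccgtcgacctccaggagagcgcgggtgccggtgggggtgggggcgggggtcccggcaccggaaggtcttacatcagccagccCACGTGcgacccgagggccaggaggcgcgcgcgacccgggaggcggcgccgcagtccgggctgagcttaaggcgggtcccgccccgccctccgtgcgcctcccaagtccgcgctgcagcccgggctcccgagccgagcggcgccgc
Mtm1: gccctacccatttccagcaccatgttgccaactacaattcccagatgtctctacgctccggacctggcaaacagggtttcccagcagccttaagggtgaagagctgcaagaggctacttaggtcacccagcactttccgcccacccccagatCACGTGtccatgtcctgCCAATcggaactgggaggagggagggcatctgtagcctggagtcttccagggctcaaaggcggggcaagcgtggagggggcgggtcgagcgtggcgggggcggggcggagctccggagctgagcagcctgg
The E-box stood once in the windows of Set, Anp32b and Mtm1, and the CCAAT box once in each of these and 2 times in that of Phgdh. RefSeq windows were found for 23 of the 28 genes. Of the 17 lower genes with a window, 4 held the E-box (23.5%, compared with 10.8% of 9882 measured genes) and 8 the CCAAT box (47.1%, compared with 42.3%). Of the 6 higher genes with a window, 0 held the E-box and 1 the CCAAT box. Over single windows of measured genes the shares were 9.11% and 37.1%. These matches describe the letters of the windows, and no binding was measured.

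Among the lower genes, 4 act in DNA repair or mark DNA damage. Ung encodes uracil-DNA glycosylase, which removes uracil from DNA. Its signal was 6.17, 5.94, 6.45 and 6.58 in the CP-Dox tumours and 7.93, 7.35, 8.05 and 7.96 in the Dox tumours. The lowest Dox value, in replicate 2, lay above the highest CP-Dox value, and Ung fell by 1.54 ± 0.18 (2.91-fold lower, limma adjusted p = 0.0117). Xrcc6, which encodes the Ku70 subunit that binds broken DNA ends, was nearly constant in the CP-Dox tumours at 8.278, 8.320, 8.253 and 8.286, compared with 8.972, 8.667, 9.001 and 8.797 in the Dox tumours, and fell by 0.57 ± 0.084 (limma adjusted p = 0.0392). H2ax, which encodes the histone variant phosphorylated around breaks, was at 9.85, 9.44, 9.70 and 10.09 and 10.68, 10.44, 10.67 and 10.71 in the same order and fell by 0.86 ± 0.13 (limma adjusted p = 0.0413). It was lowest in CP-Dox replicate 2. Rif1, whose product guides the choice of repair pathway and the timing of replication, fell by 0.56 ± 0.096.

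RNA and nucleolar genes formed another group of falls. Snrpa1, which encodes a protein of the U2 splicing particle, was at 9.35, 9.22, 9.13 and 9.51 in the CP-Dox tumours and 10.05, 10.06, 10.15 and 10.24 in the Dox tumours, with no overlap, and fell by 0.82 ± 0.099 (limma adjusted p = 0.0140). Nhp2, which encodes a core protein of the particles that guide pseudouridylation of ribosomal RNA, was at 10.79, 11.02, 10.61 and 10.83 compared with 11.41, 11.36, 11.45 and 11.48 and fell by 0.61 ± 0.099. CP-Dox replicate 2 was again the highest of its group. Lyar, a gene of ribosomal RNA processing, fell by 0.78 ± 0.12, Pa2g4, which encodes a ribosome-associated growth regulator, fell by 0.48 ± 0.084, and Ddx39a, which encodes an RNA helicase of splicing and export, fell by 0.59 ± 0.10 (limma adjusted p from 0.0437 to 0.0499).

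Several of the falls concerned genes of histone chaperones and chromatin proteins. Set, which encodes a histone chaperone and inhibitor of protein phosphatase 2A, was at 12.09, 12.35, 12.01 and 12.20 in the CP-Dox tumours and at 12.60, 12.72, 12.70 and 12.71 in the Dox tumours, and fell by 0.52 ± 0.082. Anp32b fell by 0.43 ± 0.074 and Anp32e, whose product takes the histone variant H2A.Z off chromatin, fell by 0.61 ± 0.10. Ruvbl2, which encodes an ATPase of chromatin remodelling complexes, fell by 0.45 ± 0.077. Rcc1, which encodes the chromatin-bound exchange factor of the GTPase Ran, fell by 0.72 ± 0.12. Cdca7, which encodes a partner of the remodeller Hells, fell by 0.90 ± 0.14 (limma adjusted p for these 6 genes from 0.0437 to 0.0499). The remaining falls had other roles. Cbr2, which encodes a carbonyl reductase, was at 7.02, 7.35, 7.90 and 6.98 in the CP-Dox tumours and 9.86, 9.38, 9.70 and 8.61 in the Dox tumours. It fell by 2.07 ± 0.35 (4.2-fold lower, limma adjusted p = 0.0499), the largest fall among the called genes. Mtm1, which encodes a phosphatase of phosphoinositides, was at 9.371, 10.200, 8.995 and 9.608 and 10.759, 11.050, 11.208 and 10.899 in the same order and fell by 1.44 ± 0.20 (limma adjusted p = 0.0392). Timm8a1, which encodes a chaperone of protein import into mitochondria, fell by 0.84 ± 0.14.

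**Figure D2:**
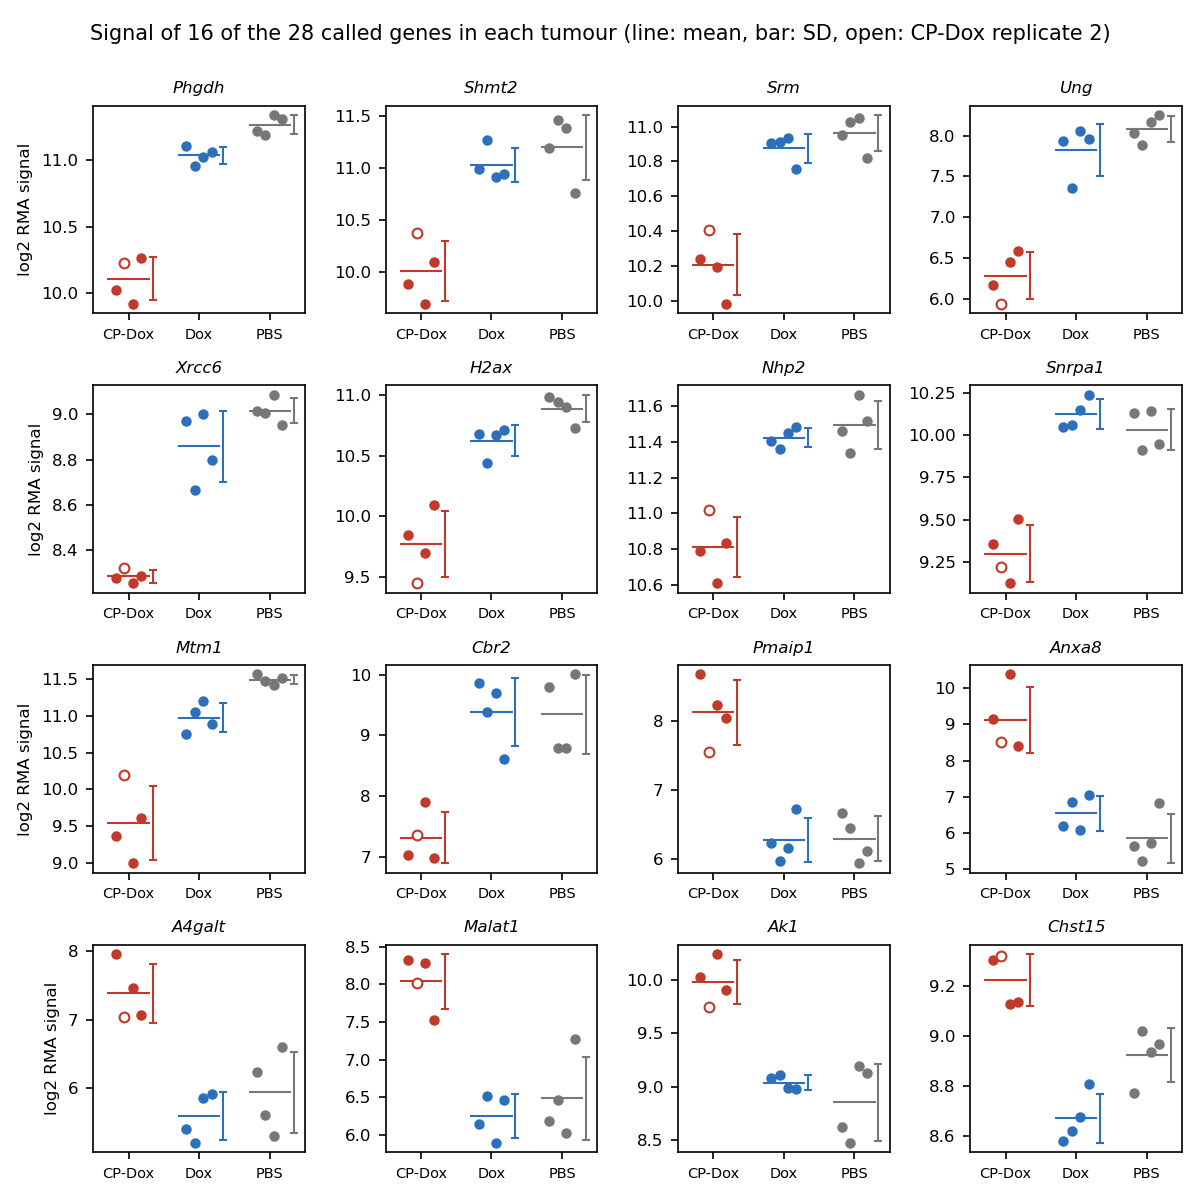
Log2 signals of 16 of the 28 called genes in each of the 4 CP-Dox (red), 4 Dox (blue) and 4 PBS (grey) tumours, with a line for the group mean, a bar for the SD and an open circle for CP-Dox replicate 2; each panel has its own vertical scale, which does not start at 0. No CP-Dox value falls within the range of the Dox values in any panel, and the open circle is the CP-Dox value nearest to the Dox tumours in Shmt2, Srm, Xrcc6, Nhp2, Mtm1, Pmaip1, A4galt and Ak1.

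In the other direction 7 genes rose, 4 of them by more than 2-fold. Pmaip1 was at 8.68, 7.55, 8.24 and 8.05 in the CP-Dox tumours and at 6.23, 5.97, 6.17 and 6.72 in the Dox tumours, lowest in CP-Dox replicate 2 but still above every Dox value. It rose by 1.86 ± 0.24 (3.62-fold, limma adjusted p = 0.0237). Anxa8, which encodes an annexin, a calcium-dependent membrane-binding protein, had the largest rise. Its signal was 9.16, 8.51, 10.38 and 8.40 in CP-Dox replicates 1 to 4 and 6.17, 6.85, 6.07 and 7.05 in the Dox tumours, and it rose by 2.58 ± 0.45 (5.97-fold, limma adjusted p = 0.0499). The highest Anxa8 values were those of the tumours with keratinocyte markers, replicates 1 and 3. That replicates 2 and 4 lay above every Dox tumour is already given by the absence of overlap. With CP-Dox replicates 1 and 3 left out, Anxa8 differed by 1.92 (limma adjusted p = 0.619). The part of keratinocytes in the Anxa8 difference was not tested further. A4galt, which encodes the synthase of the glycolipid globotriaosylceramide, was at 7.95, 7.03, 7.47 and 7.07 compared with 5.41, 5.20, 5.85 and 5.92 and rose by 1.79 ± 0.30 (limma adjusted p = 0.0499).

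Malat1, a long noncoding RNA kept in the nucleus, was at 8.32, 8.02, 8.28 and 7.53 in the CP-Dox tumours and at 6.14, 6.52, 5.89 and 6.47 in the Dox tumours, and rose by 1.78 ± 0.27 (limma adjusted p = 0.0413). Ak1, which encodes a cytosolic adenylate kinase abundant in muscle, was at 10.02, 9.75, 10.24 and 9.90 and 9.08, 9.11, 8.98 and 8.97 in the same order and rose by 0.94 ± 0.16 (limma adjusted p = 0.0499). Dox replicate 2, with high muscle markers, did not stand out from the other Dox tumours for Ak1. In the PBS tumours Ak1 was at 8.62 and 8.47 in replicates 1 and 2. It was at 9.20 and 9.13 in PBS replicates 3 and 4, where muscle markers were high. With the muscle marker mean as a covariate the difference was 0.76, and the part of muscle in it was not tested further. Chst15, which encodes a sulfotransferase acting on chondroitin sulfate, rose by 0.55 ± 0.087, and Ubap1, which encodes a subunit of an endosomal sorting complex, rose by 0.46 ± 0.074. Below the threshold, the lowest p-values among genes higher in CP-Dox without overlap were those of the mast cell growth factor receptor gene Kit (1.06 ± 0.19), the cyclin-dependent kinase gene Cdk6 (1.22 ± 0.22), the endoplasmic reticulum disulfide isomerase gene Pdia4 (0.81 ± 0.15), Prr13 (0.61 ± 0.11) and the taurine transporter gene Slc6a6 (0.97 ± 0.18), with limma adjusted p from 0.0521 to 0.0578.

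Other probe sets of the same genes gave a check on the signals, but not on the tumours, since they read the same RNA. Of the 28 genes, 16 had 32 further probe sets, and 29 of these had the direction of the one reported. The 3 exceptions were probe sets of Mtm1 (0.23), Malat1 (-0.060) and Ak1 (-0.065), and Ak1 had only that 1 other probe set. Of the 29 in the same direction, 27 reached an unadjusted p under 0.05 (limma). Ubap1 also had only 1 other probe set, which was at 0.15, compared with 0.46 for the one reported, and did not reach it. Probe sets with the suffix x, among them those reported for Phgdh, Shmt2 and Ddx39a, hold probes that may also match other transcripts.

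Each form's own distance from PBS is given side by side, since both share the 4 PBS tumours and an overlap between them would not be independent. The called genes were picked by their difference between the forms, so their Dox values do not describe the response to Dox. In Dox against PBS, 0 genes were called (limma), with 558 of 12393 at an unadjusted p under 0.05. The p53 targets Ephx1, Trp53inp1 and Ccng1 were 1.55, 1.14 and 0.94 above PBS with Dox, and Gadd45a was at -0.46. Pmaip1 was 1.83 above PBS with CP-Dox, and its difference from PBS was -0.027 with Dox. For Ung the differences from PBS were -1.80 with CP-Dox and -0.26 with Dox, for Phgdh -1.15 and -0.23, for Mtm1 -1.95 and -0.52, and for Cbr2 -2.03 and 0.040. Chst15 lay on both sides of PBS, at 0.30 with CP-Dox and -0.25 with Dox. The signs also differed for A4galt (1.44 and -0.35), Malat1 (1.55 and -0.23), Snrpa1 (-0.73 and 0.091) and Ubap1 (0.39 and -0.072).

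**Figure D3:**
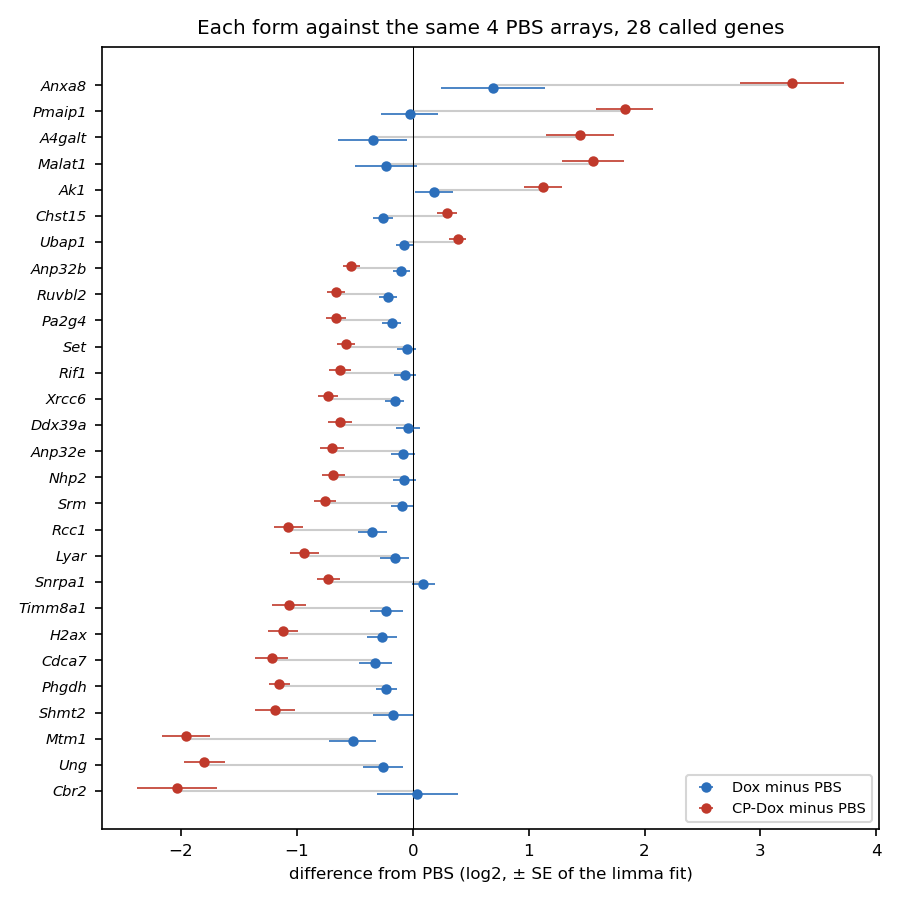
Log2 difference from the 4 PBS tumours for each of the 28 called genes, with CP-Dox in red and Dox in blue, and bars for the standard error of the limma fit. The Dox values lie between -0.52 (Mtm1) and 0.69 (Anxa8), and the CP-Dox values between -2.03 (Cbr2) and 3.27 (Anxa8). The genes were picked by their difference between the forms.

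Gene lists were described by how many members passed and by their median, beside the median over all genes, -0.030 [-0.051, -0.016]. The 2 values in square brackets are the same median without CP-Dox replicate 2 and without CP-Dox replicates 1 and 3, here and for each list. Of the 12393 genes, 5486 were higher on average in CP-Dox and 6907 lower. Without CP-Dox replicate 2, 4.77% of all genes rose and 4.51% fell, and the counts of each list in that fit stand beside these shares. In the list of serine, one-carbon and nucleotide synthesis, Phgdh and Shmt2 fell among 19 measured genes and none rose, and the median was -0.55 [-0.58, -0.43]. At an unadjusted p under 0.05, 14 members were lower and 2 higher, where 9.39% of all genes were lower and 6.67% higher. The list mean in the CP-Dox tumours was -0.57, -0.38, -0.61 and -0.43 relative to the Dox mean, compared with -0.028 to 0.023 in the Dox tumours, so that the groups did not overlap with or without CP-Dox replicate 2. Adsl, an enzyme gene of purine synthesis, was at -0.49 ± 0.088 (limma adjusted p = 0.0521), whereas Aldh1l1, which encodes a cytosolic enzyme that oxidizes one-carbon folate, was at 0.60 ± 0.11 (limma adjusted p = 0.0578). Leaving out CP-Dox replicate 2 gave 9 falls and 2 rises.

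Of 29 ribosome biogenesis genes, Nhp2 fell and none rose, and 28 had a negative difference, with a median of -0.37 [-0.46, -0.27]. At an unadjusted p under 0.05, 20 were lower, where 9.39% of all genes were lower. Nop56, a component of the particles that methylate ribosomal RNA, was at -0.80 ± 0.15, Gar1, a partner of Nhp2, at -0.61 ± 0.12, and Ebna1bp2 at -0.50 ± 0.099 (limma adjusted p from 0.0578 to 0.0661). The mean of this list stood at -0.39, -0.18, -0.52 and -0.42 in CP-Dox replicates 1 to 4 and -0.076 to 0.11 in the Dox tumours. CP-Dox replicate 2 was nearest to the Dox tumours, and without it 12 members fell.

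Of 27 p53 targets of arrest and feedback none passed, 22 were higher on average, and the median was 0.35 [0.46, 0.20]. With an unadjusted p under 0.05, 12 were higher and 0 lower, where 6.67% of all genes were higher and 9.39% lower. Cdkn1a, the gene of the cyclin-dependent kinase inhibitor p21, was at 11.13, 10.82, 11.61 and 11.42 in the CP-Dox tumours and at 10.78, 10.64, 10.37 and 10.19 in the Dox tumours, without overlap, and differed by 0.75 ± 0.27 (95% confidence interval 0.16 to 1.34, limma adjusted p = 0.225). Mdm2, the main negative regulator of p53, was at 9.56, 9.45, 9.96 and 9.94 and 9.52, 8.86, 8.91 and 8.38 in the same order, with Dox replicate 1 inside the CP-Dox range, and differed by 0.81 ± 0.26 (95% confidence interval 0.24 to 1.38). The cyclin G1 gene Ccng1 differed by 0.79 ± 0.21, the epoxide hydrolase gene Ephx1 by 1.52 ± 0.38, Trp53inp1, which promotes autophagy and cell death, by 1.37 ± 0.35, and the stress-induced gene Gadd45a by 1.20 ± 0.32 (limma adjusted p from 0.111 to 0.136). Among 14 p53 targets of cell death, Pmaip1 rose, and the median was 0.47 [0.65, 0.080]. Of these 14, 5 were higher and 1 lower at an unadjusted p under 0.05. Bbc3, which encodes the pro-apoptotic protein Puma, was at 0.55 ± 0.17, Phlda3 at 0.59 ± 0.20 and Ei24 at 0.41 ± 0.15. The mean of this list stood at 0.86, -0.16, 1.04 and 0.60 in the CP-Dox tumours and overlapped with the Dox tumours (-0.27 to 0.21) through replicate 2. It holds Perp, which keratinocytes also express and which differed by 2.89 ± 1.20, with 9.66 and 11.29 in the tumours with keratinocyte markers and 4.66 and 4.99 in CP-Dox replicates 2 and 4. Without CP-Dox replicate 2, 6 and 8 members of the p53 lists rose and none fell.

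Genes of the Bcl2 family and caspases outside the p53 lists gave 0 calls of 22 (limma; 4 higher and 2 lower at an unadjusted p under 0.05; median 0.085 [0.13, 0.045]). Bcl2l11, the gene of Bim, which opposes Bcl2, was at 0.53 ± 0.18 and Bok at -0.48 ± 0.17. With CP-Dox replicate 2 left out, 4 members rose and 1 fell, where 4.77% of all genes rose and 4.51% fell.

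All 32 DNA replication and S phase genes were lower on average in CP-Dox, with a median of -0.44 [-0.20, -0.71], and none passed. At an unadjusted p under 0.05, 14 were lower, where 9.39% of all genes were lower. The cyclin E genes Ccne2 and Ccne1 were at -1.54 ± 0.33 and -0.58 ± 0.14, the gene Tipin of the replication fork at -0.66 ± 0.13, and the thymidine kinase gene Tk1 at -1.01 ± 0.30 (limma adjusted p from 0.0578 to 0.170). The size of the difference rested on 1 tumour, since the mean of its list stood at -1.31 in CP-Dox replicate 2, -0.25 to -0.16 in the other CP-Dox tumours and -0.36 to 0.18 in the Dox tumours. Without replicate 2, 3 members fell. The G2/M and mitosis genes showed this more strongly, with a list mean of -1.31 in CP-Dox replicate 2 and -0.021 to 0.11 in the others, compared with -0.19 to 0.096 in the Dox tumours. None of 35 passed, the median was -0.29 [-0.015, -0.61], and 3 members rose and none fell without replicate 2. Kif23 and the cyclin A2 gene Ccna2 were at -0.67 ± 0.22 and -0.62 ± 0.21. Mki67, a marker of proliferating cells, was at 9.73, 7.78, 9.41 and 9.27 in the CP-Dox tumours and 9.29, 9.83, 9.56 and 9.27 in the Dox tumours, low in replicate 2 alone, and differed by -0.44 ± 0.34 (limma adjusted p = 0.531).

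In the DNA repair and checkpoint list, Ung, Xrcc6 and H2ax fell among 27 measured genes and none rose, with a median of -0.22 [-0.074, -0.39]. Of the 27, 9 were lower and 0 higher at an unadjusted p under 0.05, where 9.39% of all genes were lower. Apex1, which encodes the main apurinic endonuclease, was at -0.51 ± 0.11 (limma adjusted p = 0.0829). When CP-Dox replicate 2 was left out, 5 fell. Among 9 histone and chromatin assembly genes, H2ax fell as well, 8 were lower, and the median was -0.66 [-0.43, -0.84]. The histone chaperone gene Nasp was at -0.57 ± 0.13 and the remodeller gene Hells at -0.76 ± 0.23, compared with -0.48 without CP-Dox replicate 2, when 3 members of the list fell. The topoisomerase genes, among them Top2a and Top2b for the topoisomerase II that the drug traps, gave no call. Top2a was at 11.26, 8.96, 11.08 and 11.17 in the CP-Dox tumours and 11.03, 10.71, 10.78 and 10.60 in the Dox tumours, and its difference of -0.16 ± 0.44 (95% confidence interval -1.12 to 0.79) was 0.39 without CP-Dox replicate 2. Top2b differed by -0.12 ± 0.13 (interval -0.41 to 0.16) and Top1 by -0.14 ± 0.16 (interval -0.50 to 0.22), and 0 of 6 topoisomerase genes passed (limma; median -0.064 [0.046, -0.085]; 0 at an unadjusted p under 0.05 as well, and 0 without replicate 2).

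Of 15 genes of doxorubicin transport and metabolism, Cbr2 fell and none rose, and the median was 0.19 [0.18, 0.078]. Cbr1, which encodes the cytosolic carbonyl reductase that makes doxorubicinol, was at 0.19 ± 0.094, and the xanthine dehydrogenase gene Xdh at 0.84 ± 0.30. The drug efflux pump gene Abcb1a was at 7.25, 6.55, 6.96 and 6.43 in the CP-Dox tumours and 6.28, 6.81, 6.49 and 6.73 in the Dox tumours, which overlap, with a difference of 0.22 ± 0.19 (95% confidence interval -0.20 to 0.64). Abcb1b and Abcc1, which encode further efflux pumps, differed by 0.034 ± 0.15 (interval -0.30 to 0.37) and -0.13 ± 0.23 (interval -0.64 to 0.38). The fit without CP-Dox replicate 2 gave 3 rises and 1 fall, where 4.77% of all genes rose and 4.51% fell.

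Stress lists had members on both sides of 0. None of 29 genes of the ATF4 and unfolded protein responses passed, with a median of 0.051 [0.080, 0.040]. Pdia4 and the lipoprotein receptor gene Vldlr (1.02 ± 0.26) were higher on average, while Trib3 (-0.61 ± 0.14), a pseudokinase gene induced by ATF4, and the asparagine synthetase gene Asns (-0.74 ± 0.25) were lower, and 5 members rose and 3 fell when CP-Dox replicate 2 was left out. None of 16 heat shock genes passed either, with a median of -0.15 [-0.30, -0.013]. The mitochondrial chaperone genes Hspd1 and Hspe1 were at -0.70 ± 0.17 and -0.47 ± 0.11, the co-chaperone gene Dnajb1 at -0.44 ± 0.11, and the inducible Hsp70 gene Hspa1a at 0.53 ± 0.15, and 4 members fell without replicate 2. Lysosome and autophagy genes were higher in 28 of 31, none called, with a median of 0.23 [0.23, 0.14]. Of the 31, 12 were higher and 1 lower at an unadjusted p under 0.05, where 6.67% of all genes were higher. The mean of the lysosome list did not overlap, at 0.21, 0.067, 0.34 and 0.23 in the CP-Dox tumours and -0.038 to 0.019 in the Dox tumours. The proton pump gene Atp6v0d1 was at 0.31 ± 0.069, the lysosomal calcium channel gene Mcoln1 at 0.34 ± 0.091, the galactosidase gene Gla at 0.87 ± 0.24 and the cathepsin D gene Ctsd at 0.44 ± 0.13, and 9 members rose without CP-Dox replicate 2.

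Cholesterol and fatty acid synthesis genes gave 0 calls of 25 (limma; 1 lower at an unadjusted p under 0.05; median -0.20 [-0.38, 0.010]). Their list mean was -0.53 to -0.45 in CP-Dox replicates 1, 3 and 4, below the Dox range of -0.27 to 0.28, and 0.48 in replicate 2, above it. Fdps, which encodes farnesyl diphosphate synthase, was at 9.54, 11.26, 9.09 and 9.47 in the CP-Dox tumours and 10.34, 11.01, 10.50 and 10.75 in the Dox tumours, and its difference was -0.81 ± 0.37 with all arrays and -1.29 without replicate 2 (limma adjusted p = 0.316 and 0.00588). Idi1 and the squalene epoxidase gene Sqle were at -1.14 ± 0.44 and -0.93 ± 0.53, and 5 members fell without replicate 2. Among 22 NRF2 and antioxidant genes none passed (median 0.15 [0.23, 0.075]), with the glutathione transferase gene Gsta4 at 0.68 ± 0.24. Txnip, which encodes an inhibitor of thioredoxin, was at 11.73, 9.29, 12.17 and 11.15 in the CP-Dox tumours and 10.29, 9.89, 10.13 and 10.69 in the Dox tumours. It differed by 0.84 ± 0.48 with all arrays and by 1.44 without replicate 2 (limma adjusted p = 0.404 and 0.00854).

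None of 22 hypoxia and glycolysis genes passed (median 0.0045 [-0.065, 0.18]), the lowest p being those of the hexokinase gene Hk1 (0.48 ± 0.14) and of Ddit4, an inhibitor of mTOR signalling (0.81 ± 0.26). Of 13 iron and haem genes none passed (median 0.084 [0.10, 0.23]). The transferrin receptor gene Tfrc was at -1.41 ± 0.39 with all arrays and at -1.85 without the second CP-Dox tumour (limma adjusted p = 0.139 and 0.00588), and the ferritin heavy chain gene Fth1 was at 0.27 ± 0.089. None of 22 immediate early genes passed (median -0.31 [-0.37, 0.0074]), with Nr4a1 at -2.17 ± 0.92 and Egr3 at -0.24 ± 0.077. Of 20 matrix remodelling genes none passed (median 0.056 [-0.023, 0.17]), with the urokinase gene Plau at 1.01 ± 0.31 and the collagenase gene Mmp13 at 1.63 ± 0.53.

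Interferon-stimulated genes varied widely within the CP-Dox group and gave no call. None of 35 passed, and 0 reached an unadjusted p under 0.05 (limma), although 34 were higher on average and the median was 0.52 [1.30, -0.26]. The mean of the list, relative to the Dox mean, was 1.32, -1.76, 1.27 and 1.18 in the CP-Dox tumours in the order of their numbers, compared with 0.28, -0.73, -0.081 and 0.54 in Dox replicates 1 to 4. Mx1, which encodes an antiviral GTPase, was at 9.53, 5.09, 8.95 and 8.47 and 7.29, 5.99, 6.87 and 7.22 in the same order. It differed by 1.17 ± 0.79 with all arrays and by 2.14 without replicate 2 (limma adjusted p = 0.475 and 0.0132). The other interferon-induced genes of lowest p included Ifit3 (1.29 ± 0.80) and Ifit2 (0.58 ± 0.34). Without replicate 2, 22 of the 35 rose.

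Genes of cytotoxic lymphocytes also had their lowest list mean in CP-Dox replicate 2, at -1.60, compared with 0.84 to 1.01 in the other CP-Dox tumours and -0.67 to 0.69 in the Dox tumours. The granzyme B gene Gzmb was at 12.31, 7.47, 12.09 and 12.36 in CP-Dox replicates 1 to 4 and at 10.49, 8.71, 9.17 and 11.21 in Dox replicates 1 to 4. CP-Dox replicate 2 was below every Dox tumour and the other CP-Dox tumours above, and the difference was 1.16 ± 0.97 with all arrays and 2.36 without it (limma adjusted p = 0.564 and 0.0203). The perforin gene Prf1 differed by 0.78 ± 0.76 and the interferon gamma gene Ifng by 1.21 ± 0.95, and without replicate 2 by 1.69 and 2.25 (limma adjusted p = 0.0320 and 0.0531). Of 20 genes of this list 0 were called by limma, also at an unadjusted p under 0.05, the median was 0.19 [0.76, -0.31], and 3 rose without replicate 2. Class I antigen presentation genes gave 0 calls of 14 (limma; 0 also at an unadjusted p under 0.05) and a median of 0.29 [0.83, -0.20], with the peptide transporter gene Tap2 at 0.72 ± 0.52, and 5 rose without replicate 2. Class II genes gave 0 calls of 10 with and without it (limma; 0 at an unadjusted p under 0.05 with all arrays), and their median was -0.088 [0.31, -0.36]. Among 25 chemokine genes (median 0.17 [0.57, 0.0014]) none passed and 5 rose without replicate 2, with the monocyte-attracting chemokine genes Ccl12 and Ccl7 at 0.98 ± 0.41 and 1.04 ± 0.53 with all arrays. Of 26 NF-kB and cytokine genes none passed (median 0.086 [0.17, 0.12]). The acute-phase gene Saa3 was at 1.70 ± 0.81, the prostaglandin synthase gene Ptgs2 at -1.90 ± 1.01 and Il15 at 1.29 ± 0.69. Of the 26, 5 rose and 1 fell without replicate 2, where 4.77% of all genes rose and 4.51% fell.

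**Figure D4:**
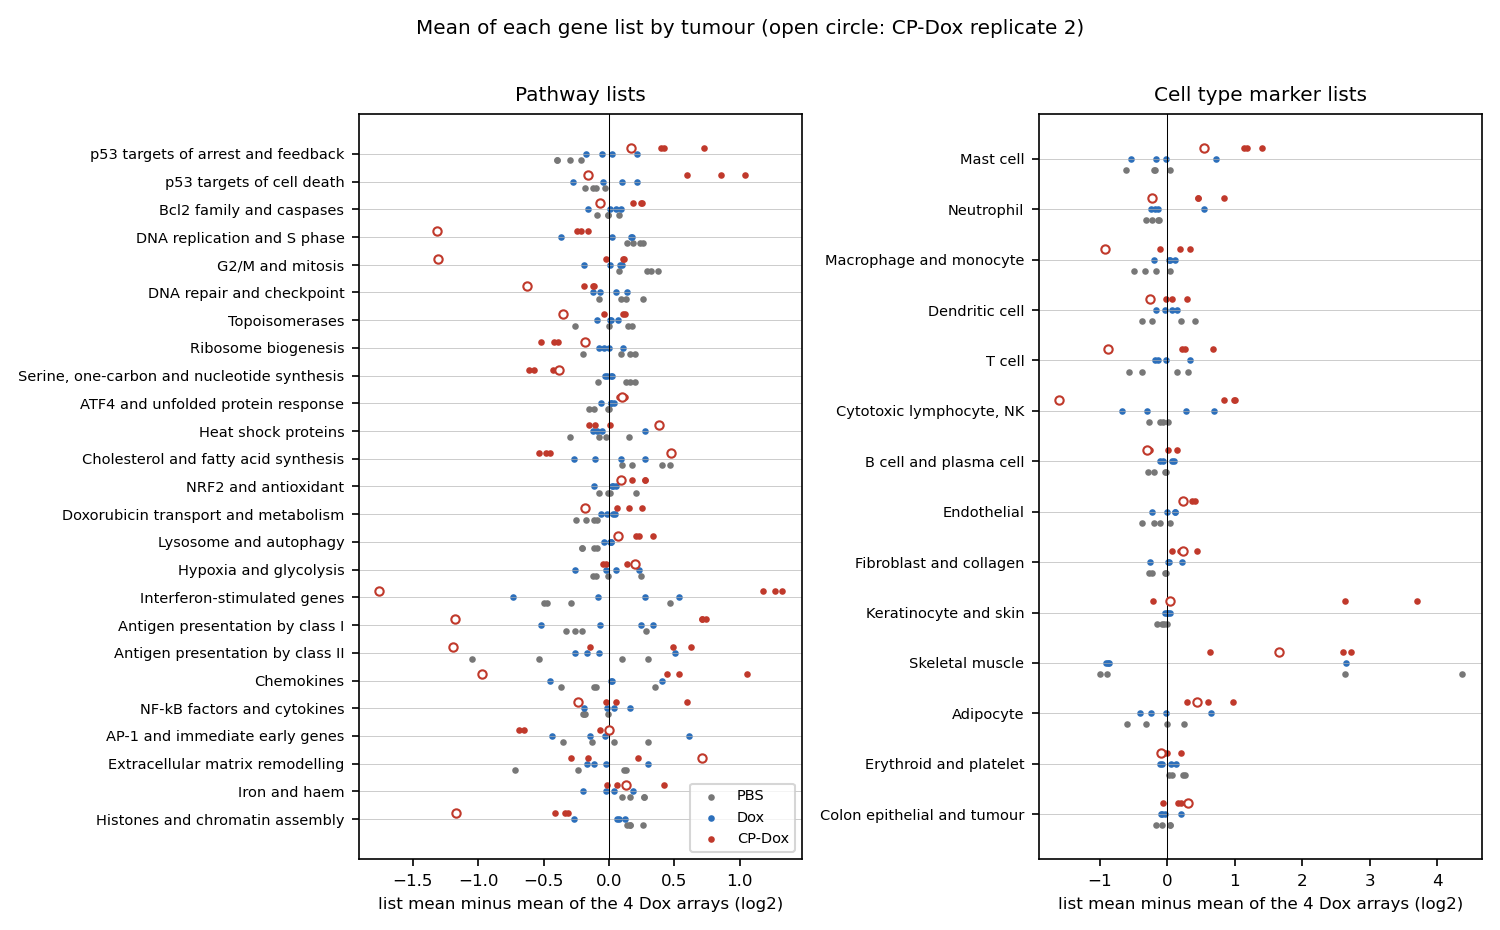
Mean log2 signal of each gene list in each tumour, minus the mean of the 4 Dox tumours, for 25 pathway lists (left) and 14 cell type marker lists (right), with CP-Dox in red, Dox in blue, PBS in grey and CP-Dox replicate 2 as an open circle. The interferon list spans -1.76 to 1.32 within CP-Dox, whereas the serine and one-carbon list stays between -0.61 and -0.38, below all Dox tumours.

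Mast cell markers were higher on average after CP-Dox, without a call. Of 16 markers, 15 were higher and 11 were so at an unadjusted p under 0.05, and the median was 1.15 [1.32, 0.93]. Over all genes 5486 of 12393 were higher, and 6.67% were so at an unadjusted p under 0.05. Kit was at 7.89, 7.73, 7.96 and 7.61 in the CP-Dox tumours and 6.36, 7.26, 6.33 and 7.01 in the Dox tumours, and the tryptase gene Tpsb2 at 11.01, 10.74, 11.18 and 10.98 and 8.92, 9.13, 8.53 and 10.33. Both were without overlap, with differences of 1.06 ± 0.19 and 1.75 ± 0.33 (limma adjusted p = 0.0521 and 0.0578). Tph1, which encodes the enzyme of serotonin synthesis, was at 1.83 ± 0.35, and the histidine decarboxylase gene Hdc, whose product makes histamine, at 1.13 ± 0.22 (limma adjusted p = 0.0578 and 0.0613). The mean of the mast cell list, relative to Dox, stood at 1.41, 0.54, 1.14 and 1.18 in CP-Dox replicates 1 to 4 and -0.17, -0.024, -0.54 and 0.73 in Dox replicates 1 to 4, so that Dox replicate 4 overlapped with CP-Dox replicate 2. Without CP-Dox replicate 2, 12 of the 16 rose, where 4.77% of all genes rose.

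**Figure D5:**
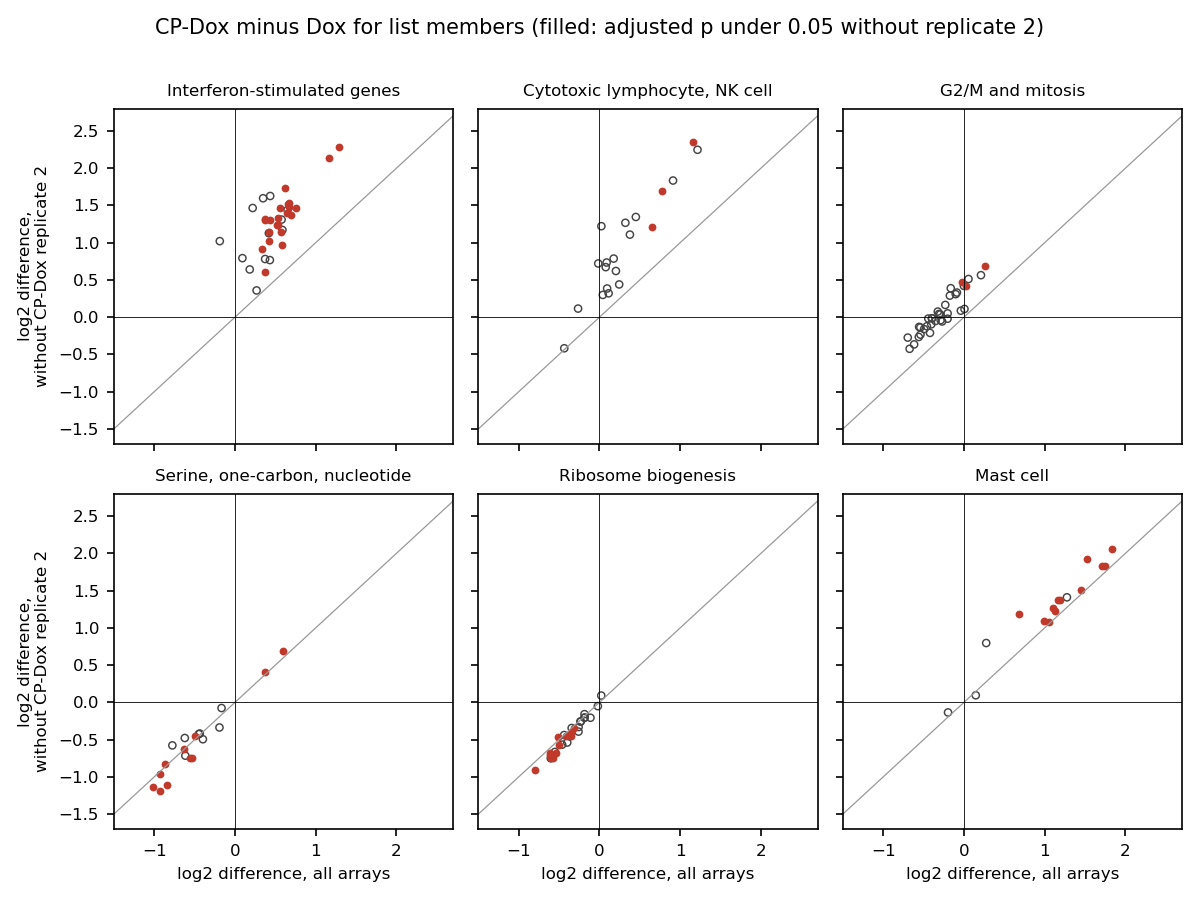
Log2 difference, CP-Dox minus Dox, of the members of 6 lists with all arrays (horizontal) and without CP-Dox replicate 2 (vertical), with the line of equality in grey and filled red points for an adjusted p under 0.05 without that array. Serine and one-carbon, ribosome biogenesis and mast cell genes lie nearer to the line, while the interferon genes and most cytotoxic genes lie above it, with medians that move from 0.52 to 1.30 and from 0.19 to 0.76.

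Endothelial markers were higher on average in 19 of 19 (median 0.29 [0.29, 0.26]), none called, and the list mean did not overlap between CP-Dox (0.23 to 0.42) and Dox (-0.23 to 0.12). The adhesion gene Pecam1 was at 0.74 ± 0.15, the diaphragm gene Plvap at 0.62 ± 0.16, the endomucin gene Emcn at 0.45 ± 0.13 and the receptor gene Tie1 at 0.55 ± 0.16 (limma adjusted p from 0.0710 to 0.160). The neutrophil genes S100a8 and S100a9 were at 1.45 ± 0.50 and 1.64 ± 0.61 and Lcn2 at 1.39 ± 0.63, and 0 of 15 neutrophil markers passed (limma; 4 higher at an unadjusted p under 0.05; median 0.030 [0.18, 0.028]). S100a8 was at 8.17, 8.34, 8.21 and 10.50 in Dox replicates 1 to 4, high in replicate 4 alone. Of 22 macrophage markers none passed (median -0.082 [0.19, -0.30]), and the haemoglobin scavenger receptor gene Cd163 was at 6.32, 6.31, 4.65 and 5.56 in the CP-Dox tumours and 7.91, 8.46, 7.19 and 6.96 in the Dox tumours, a difference of -1.92 ± 0.52 (limma adjusted p = 0.138). The mannose receptor gene Mrc1 was at -0.55 ± 0.23.

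The T cell list had a mean of -0.87 in CP-Dox replicate 2, below its 0.22 to 0.67 elsewhere in that group. Of 19 T cell markers none passed (median 0.042 [0.38, -0.12]), with Thy1, which fibroblasts also express, at 0.82 ± 0.19. Of 21 fibroblast and collagen genes none passed (median 0.12 [0.12, 0.099]), with the fibulin gene Fbln2 at 0.89 ± 0.27 and the periostin gene Postn at 1.24 ± 0.42. Dendritic cell (10 markers), B cell and plasma cell (10) and erythroid and platelet lists (12) gave 0 calls by limma each, with 0, 1 and 2 members at an unadjusted p under 0.05, and medians of -0.0048 [-0.018, 0.034], -0.12 [-0.024, -0.12] and 0.011 [-0.040, 0.027]. The erythropoietin receptor gene Epor was at -0.29 ± 0.081. Of 13 adipocyte markers none passed (median 0.38 [0.60, 0.18]), with the fatty acid transporter gene Cd36 at 1.37 ± 0.33 and the hormone-sensitive lipase gene Lipe at 0.56 ± 0.17, and 4 rose without CP-Dox replicate 2. Of 19 colon epithelial markers none passed (median -0.063 [-0.065, 0.069]), with the E-cadherin gene Cdh1 at 1.25 ± 0.33 and the carbonic anhydrase gene Car4 at 1.47 ± 0.40. Cdh1 was highest in the tumours with keratinocyte markers, at 7.03 and 7.88, compared with 5.98 and 6.29 in CP-Dox replicates 2 and 4. In the fit without CP-Dox replicate 2, 2 endothelial, 2 fibroblast, 2 colon, 2 keratinocyte and 1 T cell marker rose. So did 1 neutrophil, 1 macrophage and 1 erythroid marker, while 2 macrophage and 1 erythroid marker fell. In that fit 4.77% of all genes rose and 4.51% fell, and counts this small are not read as results about the markers.

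Skin and muscle markers had the largest list medians, and none of them passed. All 20 keratinocyte markers were higher on average, with a median of 1.58 [2.17, -0.066], and Krt14 was at 10.17, 5.57, 11.86 and 5.48 in CP-Dox replicates 1 to 4 and at 5.52, 5.46, 5.47 and 5.57 in the Dox tumours (limma adjusted p = 0.285). The filaggrin gene Flg and Krt16 were at 1.68 ± 0.68 and 2.01 ± 0.83. Of the keratinocyte markers, 10 were higher and 0 lower at an unadjusted p under 0.05, where 6.67% of all genes were higher. With CP-Dox replicates 1 and 3 left out, 0 of the 12393 genes were called (limma; 785 at an unadjusted p under 0.05). All 28 genes kept their direction in that fit, which leaves 2 CP-Dox tumours. Since their CP-Dox and Dox values did not overlap, leaving out tumours could not have turned it. Muscle markers had a median of 1.93 [2.01, 2.22] over 22 genes, none called. The myosin gene Myh1 was at 9.38, 10.54, 11.55 and 8.01 in the CP-Dox tumours and 3.78, 8.96, 3.74 and 3.66 in the Dox tumours, and the skeletal actin gene Acta1 at 10.15, 11.54, 12.55 and 12.51 and 5.99, 11.85, 6.14 and 6.30. With the muscle marker mean as a covariate 51 genes were called, 17 of the 28 among them, and with the keratinocyte marker mean as a covariate 1 was, Phgdh. Keratinocyte and muscle markers moved with the drug form in part of the tumours, and their part in the calls was not tested beyond these fits. Muscle markers were also high in PBS replicates 3 and 4 (list mean 4.37 and 2.64 above the Dox mean) and low in PBS replicates 1 and 2 (-0.89 and -0.99).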

How the data were processed

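RNA of 12 subcutaneous C26 tumours (4 each of CP-Dox, Dox and PBS) was measured on Affymetrix mouse expression arrays. The authors deposited RMA signals in log2 units, and RMA and Partek are named per the submitters' processing notes, without versions or settings. They were used unaltered. Quantile normalization, part of RMA, gives all arrays the same distribution, so that a shift of most genes would not be seen.

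Of 22690 probe sets, 64 controls, 691 with several gene symbols and 1555 with none were left out, and the 20380 others stood for 12393 genes, of which 4956 had more than 1 probe set. Such a gene was represented by its brightest probe set, by the mean of all arrays. Symbols came from the platform annotation, and 20351 identifiers were found in the RefSeq table, where 0 symbols changed.

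A mean per group was fitted over all 12 arrays with limma 3.58.1 in R 4.3.3 (lmFit, eBayes, 9 residual degrees of freedom), and the contrast CP-Dox minus Dox was tested, two-sided, with Benjamini-Hochberg adjustment over 12393 genes and a threshold of 0.05. Replicates are separate mice by their titles. No set test was run. The fit was tested on simulated data. Of 892 list entries 783 had a probe set of their own.

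Named genes are the 12 largest changes per direction without overlap, filled with the lowest p where fewer passed, up to 4 members of lowest p per list, and these genes in any case (Mdm2, Cdkn1a, Ccng1, Pmaip1, Top1, Top2a, Top2b, Mki67, Abcb1a, Abcb1b, Abcc1, Txnip, Krt14, Gzmb, Prf1, Ifng, Mx1, Fdps). The called falls Set, Anp32b, Anp32e, Ruvbl2, Rif1, Ddx39a and Pa2g4 lay outside that rule and were named after their values were seen. So were the colon markers Krt8, Krt18, Cdx2 and Vil1. The members, lists and tests were chosen with earlier results of these data known. Alternatives changed the arrays, the normalization, the filter on dim genes, the choice of probe set, the variance model, the block and the threshold. Leaving out CP-Dox replicates 1 and 3 together and the marker covariates were added after the data were seen. Python 3.11.15 and matplotlib 3.10.9 served for tables and figures.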

Additional observations from a re-analysis of the deposited data

Results flagged for a closer look

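In 36 of the 336 groups of 4 tumours examined (the CP-Dox and Dox groups of the genes and lists given here), 1 tumour lay apart from the other 3 by more than Dixon's 95% critical value. Chance flags about 1 in 20 groups, and the genes and lists are not independent of each other. Of the 36 cases, 20 concerned CP-Dox replicate 2.

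CP-Dox replicate 2 was the lowest of its group for Gzmb at 7.47 (others 12.09 to 12.36), Prf1 at 5.57 (others 8.98 to 9.53), Ifit3 at 8.25 (others 12.01 to 12.39), Ifit2 at 9.73 (others 11.26 to 11.31), Tap2 at 8.50 (others 10.88 to 10.97) and Il15 at 6.01 (others 8.89 to 9.39). The same held for the cycle and replication genes Top2a at 8.96 (others 11.08 to 11.26), Ccne2 at 6.06 (others 7.15 to 7.23) and Nasp at 9.51 (others 9.90 to 9.95), and for Abcb1b at 8.23 (others 8.81 to 8.82) and Gla at 8.67 (others 9.68 to 9.73). Epor was highest there at 6.61 (others 6.46 to 6.46). Its list means, relative to the Dox mean, were lowest for interferon-stimulated genes at -1.76 (others 1.18 to 1.32), cytotoxic genes at -1.60 (others 0.84 to 1.01), class I presentation at -1.18 (others 0.71 to 0.74), DNA replication at -1.31 (others -0.25 to -0.16), G2/M at -1.31 (others -0.021 to 0.11), histones and chromatin assembly at -1.17 (others -0.41 to -0.31) and DNA repair at -0.63 (others -0.19 to -0.11), and highest for cholesterol synthesis at 0.48 (others -0.53 to -0.45).

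Dox replicate 2 was apart for muscle genes, with Myh1 at 8.96 (others 3.66 to 3.78), Acta1 at 11.85 (others 5.99 to 6.30) and the muscle list at 2.65 (others -0.90 to -0.87). It was also apart for H2ax at 10.44 (others 10.67 to 10.71), Tk1 at 9.53 (others 10.48 to 10.65), Hells at 9.93 (others 10.18 to 10.22), Hspd1 at 12.76 (others 12.44 to 12.48) and the histone list at -0.27 (others 0.064 to 0.13). Dox replicate 4 was apart for S100a8 at 10.50 (others 8.17 to 8.34), S100a9 at 9.28 (others 6.40 to 6.75), the neutrophil list at 0.55 (others -0.23 to -0.14) and Srm at 10.75 (others 10.90 to 10.93). Dox replicate 1 was apart for Ddit4 at 9.38 (others 8.69 to 8.71), Xdh at 10.73 (others 10.07 to 10.13) and Set at 12.60 (others 12.70 to 12.72), and CP-Dox replicate 4 for Ruvbl2 at 10.03 (others 9.86 to 9.88).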

How the results depend on the processing

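The number of genes called in CP-Dox against Dox was 28 and depended on the setting. It was 43 after a second quantile normalization, 47 with the dimmest 40% of genes left out, 1960 with array weights, 1 at an adjusted p under 0.01, 8 with at least a 2-fold difference required as well, 0 with the CP-Dox and Dox arrays alone, and 1 to 1150 without single arrays. Median centring (37), the mean of all probe sets of a gene (34), trend and robust variance (34) and every probe set tested (34) stayed within 1.5 times of 28. After median centring 4 were higher and 33 lower, compared with 7 and 21. Of the alternatives chosen after the data were seen, the muscle covariate gave 51, the keratinocyte covariate 1, and CP-Dox replicates 1 and 3 left out 0. The number was 8 with the replicate block, 5 of them among the 28. Same-numbered CP-Dox and Dox tumours correlated in their deviations from the group means at 0.294, 0.505, 0.0199 and 0.435. CP-Dox replicates 1, 2 and 4 correlated best with the Dox tumour of the same number, and replicate 3 with Dox replicate 1. Since not all 4 were above 0.1, the numbers were not taken as pairs in the main fit. Whether tumours of the same number share more than the number was not tested further.

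The 28 genes kept their direction in all 587 combinations of gene and setting. Their CP-Dox and Dox values did not overlap. The direction was therefore fixed in advance in settings that left out or weighted tumours, or changed only the variance model or the threshold. Over the 129 genes followed, 17 of 2693 combinations turned direction, all in 7 genes that were not called. Top1 (-0.14) was -0.23 to 0.0095 without single arrays. Top2a (-0.16) was -0.38 to 0.39 without single arrays and 0.24 with array weights. Abcb1a (0.22) was -0.089 with CP-Dox replicates 1 and 3 left out and -0.034 with keratinocyte covariate. Abcb1b (0.034) was -0.017 to 0.18 without single arrays, -0.022 with median centring, -0.12 with CP-Dox replicates 1 and 3 left out, -0.059 with muscle covariate and -0.086 with keratinocyte covariate. Abcc1 (-0.13) was 0.052 with CP-Dox replicates 1 and 3 left out and 0.041 with keratinocyte covariate. Txnip (0.84) was -0.027 with CP-Dox replicates 1 and 3 left out. Mx1 (1.17) was -0.064 with CP-Dox replicates 1 and 3 left out. The number of arrays and, for genes near the array background, the low signal limit what can be seen.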

Other observations

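Of the 2246 probe sets without a single gene symbol, which enter no gene result, 3 were called when every probe set was tested (limma adjusted p under 0.05), among 34 calls in all.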
